A study of Mus musculus with 9 samples.

Results

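The genes described here are the mouse genes for mitochondrial ribosomal proteins, whose symbols begin with Mrpl or Mrps, together with 7 genes for the transcription of mitochondrial DNA: Tfam, Tfb1m, Tfb2m, Polrmt, Tefm, Mterf3 and Mterf4. The rule went by symbol, with no measured value in it, but the genes were chosen with earlier results of these data known. Of the 14004 genes in the deposited table, 85 fitted: 49 Mrpl genes, 29 Mrps genes and the 7 transcription genes. RNA-seq libraries were made from iNKT1 cells, the invariant natural killer T cells that express T-bet, with 3 libraries each from thymus, liver and spleen. All 9 libraries came from untreated C57BL/6 mice of the genotype Tbx21CreTg;Rosa26-LSL-YFP+/+, in which a Cre transgene named for Tbx21, the gene for T-bet, acts with a Rosa26 YFP reporter behind a loxP-flanked stop. No group lacked the transgene or the reporter, and the labels give no age or sex, nor the gate by which the cells were isolated. The comparisons ask how these genes differ between thymus, where iNKT cells develop, and the periphery, and between liver and spleen. The series design calls the 3 libraries of a tissue independent replicates; whether they came from separate animals is not stated, so p-values measure the spread between these libraries, part of which may be technical.

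Mitochondria keep a small genome that encodes a few membrane proteins of the respiratory chain, and a ribosome of their own translates them. That ribosome has a large and a small subunit, each with 1 RNA made in the mitochondrion and many proteins that are encoded in the nucleus, translated in the cytosol and imported. Some of these proteins have bacterial relatives and others occur only in mitochondria. Transcription of the mitochondrial genome needs the RNA polymerase Polrmt, the DNA-packaging activator Tfam and the factor Tfb2m, which melts the promoter, while Tefm keeps the polymerase elongating. Memory and tissue-resident T cells are known to lean on mitochondrial respiration, which this machinery sustains.

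Of the 78 genes with an Mrpl or Mrps symbol, 76 encode ribosome subunits, 50 of the large subunit (29 with bacterial relatives, 21 specific to mitochondria) and 26 of the small subunit (16 and 10). The remaining pair are Mrpl23-ps1, a processed pseudogene, and Mrps36, whose product belongs to the 2-oxoglutarate dehydrogenase complex rather than the ribosome. Mrpl33 was not analysed here. All 85 genes passed the filter on low values, which asked for 1 or more in 3 or more libraries. Values are the authors' normalised read counts. They are given in the order of replicates 1, 2 and 3, and thymus values below those of a single read stand for no read.

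Reads recovered from the deposited values ran from 3870808 in liver replicate 3 to 39604258 in spleen replicate 3. Thymus replicates 1 and 2 stood apart, with no read for 25.2% and 20.2% of the table's genes against 6.90% to 15.9% in the other libraries. All 12 iNKT1 markers examined, among them Tbx21, Zbtb16 and Il2rb, had reads in every library. Klrd1, a receptor of natural killer cells among them, passed as lower in both liver and spleen than in thymus (log2 fold changes of -2.34 and -2.61), and no other of the 12 passed. The summed value of the 8 measured hepatocyte genes was 1476 to 1811 in liver, 0.158 to 269.6 in thymus and 0 to 24.4 in spleen, and all 8 were without a read in thymus replicate 1 and spleen replicates 2 and 3. The summed value of 8 immature-thymocyte genes was 674 to 2204 in thymus, 8076 to 10421 in liver and 10064 to 13168 in spleen. Of these, 6 were tested: 5 were positive and 1 negative in liver vs thymus and 3 each way in spleen vs thymus, with Ccr9 and Themis past the threshold as higher in both. Rag1 and Dntt had no read in thymus replicates 1 and 2 and values of 486 and 11.3 in thymus replicate 3. Arpp21 and Cd8a were also at their highest of the 3 thymus libraries there. Rag1 had reads in spleen replicates 1 and 3 as well, and Dntt in no liver or spleen library. For 7 B cell genes the sums were 3157 to 5655, 5472 to 8097 and 5326 to 13284. For 6 myeloid genes they were 10.6 to 315 in thymus, 36.8 to 1298 in liver and 56.3 to 3575 in spleen. For 5 erythroid genes they were 2.45 to 287, 10.2 to 211 and 56.2 to 606. Spleen replicate 1 held the highest myeloid and B cell sums, and it alone had reads of all 6 and of all 7 genes. The part of these other cells in the results was not tested, and in bulk RNA fewer cells of a type and less RNA per cell cannot be told apart.

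Tefm, the elongation factor of mitochondrial transcription, was the only gene of the 85 to pass the threshold in a comparison between tissues. It had no read in any of the 3 thymus libraries, 834, 214 and 47 reads in the liver libraries and 93, 107 and 411 reads in the spleen libraries. As normalised read counts, liver had 726, 184 and 283 and spleen 69.3, 73.6 and 247, so that neither tissue overlapped thymus, while liver and spleen overlapped each other. Among the genes tested, 3.88% had no read in any thymus library. Against 3 reads in each thymus library, the mean level was at least 113-fold higher in liver and at least 36.8-fold higher in spleen. On the scale of log2(value + 1), which understates the change of low genes, the fitted liver vs thymus difference was 8.35 (SE 1.63, adjusted p = 0.0407), with limma and Benjamini-Hochberg adjustment over 13309 genes. In spleen vs thymus it was 6.73 (SE 1.63, adjusted p = 0.109), which missed the threshold, and the liver vs spleen contrast was 1.63 with an adjusted p of 1. Tefm rose in liver in the test as fitted, but its adjusted p ran from 1.91e-08 to 0.334 over 25 alternatives, and 15 of them took it past 0.05. Leaving out any of the 6 liver or spleen libraries lost the call, whereas leaving out any 1 thymus library kept it. In spleen vs thymus DESeq2 on the recovered reads was the only alternative of 25 that called it (adjusted p = 3.71e-06, range 3.71e-06 to 0.445). Hepatocyte genes were also highest in liver, and their part in the Tefm difference was not tested.

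The call of 1 gene in liver vs thymus, higher in liver, stood beside 0.323% of all genes tested (0.203% higher and 0.12% lower). In spleen vs thymus none of the 85 passed, beside 0.398% of all genes (0.188% higher and 0.21% lower), and in liver vs spleen none passed, beside 0.015%. None passed the F-test of any tissue difference either, beside 0.346%, and the lowest adjusted p there was 0.0625, that of Tefm. At an unadjusted p under 0.05, liver vs thymus had 13 of the 85, 9 higher and 4 lower, beside 11.6% of all genes (7.72% and 3.92%). Spleen vs thymus had 12, 10 higher and 2 lower, beside 11.7% (7.56% and 4.13%). Liver vs spleen had 1, higher in liver, beside 3.03% (1.72% and 1.31%), and the F-test had 7, beside 9.95%. On the recovered reads, edgeR called none of the 85 in any pairwise comparison, and DESeq2 called 4 in liver vs thymus (Tefm, Mrpl28, Mrps23 and Mrps5), 1 in spleen vs thymus (Tefm) and none in liver vs spleen. Of all genes, edgeR called 0.165%, 0.278% and 0.015%, and DESeq2 called 3.83%, 4.25% and 0.176% of those to which it gave an adjusted p, which were 83 of the 85 in each comparison. The DESeq2 counts of 4 and 1 are close to the first of these shares and below the second. Both thymus comparisons share the thymus libraries, so their values are not independent.

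Promoter windows of 4 genes follow, 250 bases before to 50 after the RefSeq start site (GRCm38.p6, 5′ to 3′ on the gene's strand). Tefm is shown because it passed the threshold in liver vs thymus, and Mrps11 because it shares a bidirectional promoter with Mrpl46. Tfam and Polrmt did not pass with all libraries. They are shown because they passed when the thymus library with their highest thymus value was left out, an omission that by itself widens the difference. Capitals mark matches, on either strand, to an ETS motif (CCGGAAGT, the kind bound by GABP), a GC box (GGGCGG, bound by SP1) or the core of the NRF1 motif (GCATGC).
Tefm: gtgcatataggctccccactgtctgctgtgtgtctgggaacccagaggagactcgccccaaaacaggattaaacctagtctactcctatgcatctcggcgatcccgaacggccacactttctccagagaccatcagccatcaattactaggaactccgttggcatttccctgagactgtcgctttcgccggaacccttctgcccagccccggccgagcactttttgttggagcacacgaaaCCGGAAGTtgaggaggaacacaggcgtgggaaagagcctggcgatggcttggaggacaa
Tfam: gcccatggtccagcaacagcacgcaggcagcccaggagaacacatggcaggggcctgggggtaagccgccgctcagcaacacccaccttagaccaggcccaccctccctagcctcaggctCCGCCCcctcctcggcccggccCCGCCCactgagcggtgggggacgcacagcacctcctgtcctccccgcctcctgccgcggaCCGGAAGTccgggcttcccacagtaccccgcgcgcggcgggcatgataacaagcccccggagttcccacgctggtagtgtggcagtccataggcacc
Polrmt: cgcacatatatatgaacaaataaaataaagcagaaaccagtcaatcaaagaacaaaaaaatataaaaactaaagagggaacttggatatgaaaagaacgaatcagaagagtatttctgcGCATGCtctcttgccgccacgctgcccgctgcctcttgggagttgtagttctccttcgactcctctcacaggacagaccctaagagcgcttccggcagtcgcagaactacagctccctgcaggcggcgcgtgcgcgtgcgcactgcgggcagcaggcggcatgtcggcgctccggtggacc
Mrps11: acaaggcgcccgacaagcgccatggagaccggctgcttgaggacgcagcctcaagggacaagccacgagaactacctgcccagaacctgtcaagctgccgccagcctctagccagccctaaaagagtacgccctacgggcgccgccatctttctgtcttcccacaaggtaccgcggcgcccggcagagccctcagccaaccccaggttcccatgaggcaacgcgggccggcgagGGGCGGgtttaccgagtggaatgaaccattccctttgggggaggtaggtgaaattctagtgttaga
The windows lie at chr11:80142104-80142403, chr10:71237995-71238294 and chr10:79746532-79746831, all on the minus strand, and at chr7:78782881-78783180 on the plus strand. Tefm and Tfam each had 1 ETS motif, at bases -9 to -2 and -47 to -40 from the start site. Tfam also had 2 GC boxes on the other strand, Polrmt had 1 NRF1 core at -131 to -126 and Mrps11 had 1 GC box at -16 to -11. RefSeq windows matched 74 of the 85 genes and gave 80 windows, some genes having more than 1 start site. The ETS motif stood in 16.2% of those 80 windows, in 8.52% of the windows of all genes tested and in 3.89% of all 32851 windows. The full NRF1 palindrome, which contains the core, stood in 3.75%, 2.14% and 0.971%, and was found for Mrpl9, Mrpl32 and Mrpl39. The core, with the palindromes included, stood in 12.5%, 10.1% and 7.93%. The GC box stood in 52.5%, 61.2% and 35.7%, and the CCAAT box (CCAAT, bound by NF-Y) in 36.2%, 37.9% and 37.4%. A match in a window is a description of letters and not a measured site.

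Tfam, which packages mitochondrial DNA and activates its transcription, had values of 55, 962 and 64 in thymus, 546, 975 and 1488 in liver and 918, 843 and 842 in spleen. Thymus replicates 1 and 3 lay below every peripheral library, and thymus replicate 2 lay within their range. The log2 fold change was 2.61 (SE 0.97, adjusted p = 0.31) in liver vs thymus and 2.52 (SE 0.97, adjusted p = 0.324) in spleen vs thymus. Without thymus replicate 2 both comparisons passed, with log2 fold changes of 3.94 (adjusted p = 0.0445) and 3.85 (adjusted p = 0.0384). Over the alternatives that kept more than 1 thymus library, the adjusted p ran from 0.0445 to 0.652 in liver vs thymus. In spleen vs thymus it ran from 0.0384 to 0.647. Polrmt, the mitochondrial RNA polymerase, had values of 0.0212, 1.18 and 345 in thymus, that is 0, 1 and 275 reads, against 198, 369 and 104 in liver and 362, 341 and 567 in spleen. Here it was thymus replicate 3 that lay with the peripheral libraries, the thymus library that had reads of Rag1 and Dntt, whose part in this was not tested. The log2 fold change was 4.43 (SE 1.89, adjusted p = 0.384) in liver vs thymus and 5.49 (SE 1.89, adjusted p = 0.268) in spleen vs thymus. Without thymus replicate 3 both passed, at 7.05 (adjusted p = 0.0388, range over alternatives 0.0388 to 0.884) and 8.11 (adjusted p = 0.0226, range 0.0226 to 0.945). Thus a different thymus library held the high value for each of these genes, and liver and spleen overlapped in both. No exon of Tefm (chr11:80136678-80142175), Tfam (chr10:71225464-71238280) or Polrmt (chr10:79736123-79746581), all on the minus strand of GRCm38, overlaps another annotated gene.

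The promoter-melting factor Tfb2m had values of 349, 123 and 570.2 in thymus, 106, 356 and 255 in liver and 464, 462 and 161 in spleen, and the 3 tissues overlapped. Its log2 fold change was -0.44 in liver vs thymus and 0.17 in spleen vs thymus, and 99.3% of 1187 bases are shared with a pseudogene, Gm1818. Tfb1m, its relative that methylates the small-subunit RNA, had 3.39, 19.7 and 135 in thymus, 568, 54.9 and 116 in liver and 418, 299 and 65.9 in spleen. Its 3 tissues overlapped, thymus replicate 1 being the lowest library, with log2 fold changes of 2.74 (SE 1.62, adjusted p = 0.524) and 3.14 (SE 1.62, adjusted p = 0.468). Mterf3, a repressor of mitochondrial transcription that also serves ribosome assembly, had 2924, 1082 and 166 in thymus, 1196, 693 and 951 in liver and 965, 1400.1 and 1392 in spleen. Its highest and its lowest value were both in thymus, and its log2 fold changes were 0.19 and 0.61. Mterf4, which targets an RNA methyltransferase to the large subunit, had 2022, 86.8 and 471 in thymus, 6.06, 221 and 327 in liver and 35.7, 111 and 225 in spleen. Thymus replicate 1 was the highest of the 9 libraries and liver replicate 1 the lowest, and the log2 fold changes were -2.45 (SE 1.60, adjusted p = 0.569) and -2.17 (SE 1.60, adjusted p = 0.624). Mterf4 shares 1855 exon bases with Sned1 on the other strand, and strand use in counting is not stated, so reads of the 2 genes cannot be told apart. Over the 7 transcription genes the median log2 fold change was 2.61 in liver vs thymus, 2.52 in spleen vs thymus and -0.39 in liver vs spleen, beside 0.29, 0.33 and -0.02 over all genes tested. Between thymus and liver 5 of the 7 were positive, and between thymus and spleen 6. On the recovered reads the medians against thymus were smaller, 0.97 and 1.3 with edgeR and 0.95 and 1.24 with DESeq2, with 4 and 5 of the 7 positive in each.

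**Figure D1:**
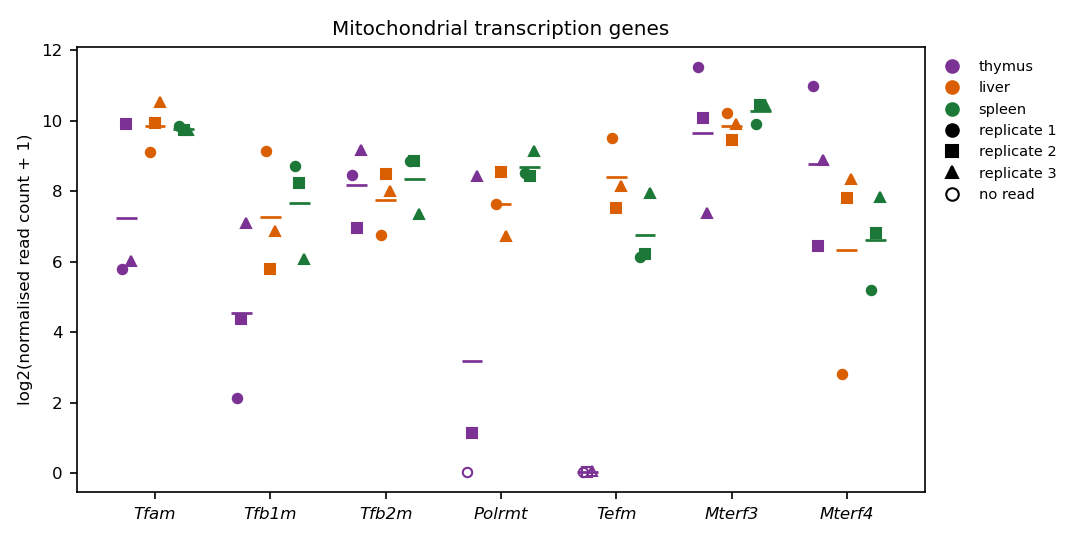
Level of the 7 mitochondrial transcription genes in each library, as log2(normalised read count + 1). Colours stand for tissues, symbols for replicate numbers, open symbols for no read and short lines for the mean of 3 libraries. The 3 thymus libraries had no read of Tefm, and Polrmt had 0, 1 and 275 reads in thymus replicates 1, 2 and 3.

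Summed over the 76 ribosome subunits, the normalised read count was 40214.5, 35532 and 29641 in thymus, 30548.5, 29183 and 32389 in liver and 35604, 30426.5 and 33336 in spleen. These are means of 35129 ± 5298, 30707 ± 1609 and 33122 ± 2595 (SD, n = 3 each), and the tissues overlapped. Scaled to 1000000 of the value outside mitochondrial genes, the subunits made up 1873 ± 237 in thymus, 1851 ± 189 in liver and 1982 ± 111 in spleen (SD, n = 3 each), and again the tissues overlapped. The ratio of large to small subunit sums was 2.38 ± 0.135 in thymus, 2.28 ± 0.0935 in liver and 2.08 ± 0.373 in spleen. The low ratio of 1.65 in spleen replicate 1 came with 3325 for Mrps17 and 1928 for Mrps10 there. The summed output of the ribosomal genes thus differed little between tissues beside the spread of libraries, while its make-up differed from library to library. The 5 highest subunits took 37.1%, 28.3% and 22.6% of the sum in thymus replicates 1, 2 and 3, 16.8% to 26.4% in liver and 16.8% to 28.5% in spleen. In thymus replicate 1 they were Mrpl4, Mrps17, Mrpl15, Mrpl36 and Mrps15, in replicate 2 Mrpl9, Mrpl30, Mrps24, Mrpl58 and Mrps21, and in replicate 3 Mrpl24, Mrps26, Mrps35, Mrpl4 and Mrps10. Mrpl4, a protein near the exit tunnel, had 4439, 97.2 and 1147 in the thymus libraries, against 416 to 691 in the other 6.

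**Figure D2:**
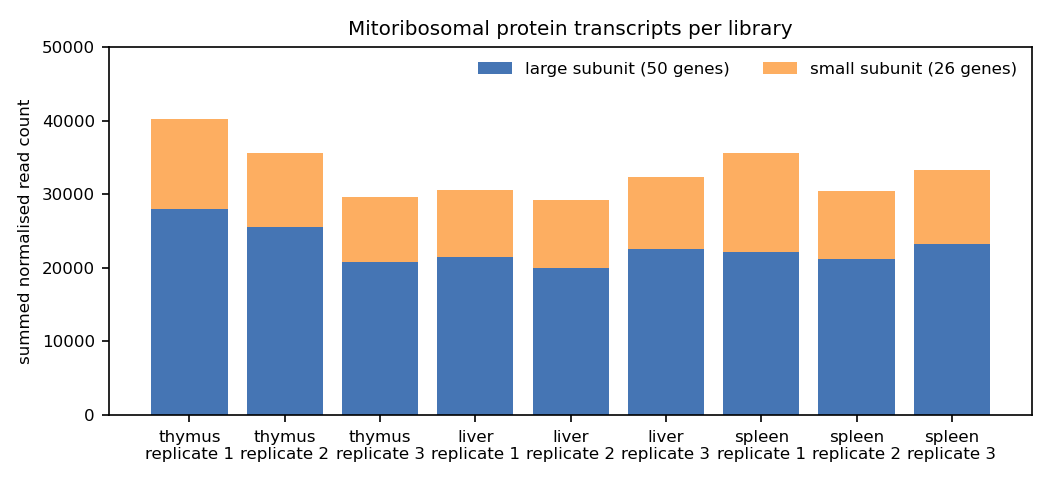
Summed normalised read count of the 50 large-subunit genes (blue) and the 26 small-subunit genes (orange) in each of the 9 libraries, on an axis that starts at 0. Totals lie between 29183 in liver replicate 2 and 40214.5 in thymus replicate 1.

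Gene by gene, thymus libraries differed more than those of liver or spleen. Of the 85 genes, 15 had no read in at least 1 thymus library (29.6% of all genes tested), against 2 in liver (18.4%) and 3 in spleen (14.1%). Thymus replicates 1, 2 and 3 lacked reads for 12, 5 and 1 of them, or 14.1%, 5.88% and 1.18%, beside 21.6%, 16.5% and 9.35% of all genes tested. The highest thymus value + 1 was over 10-fold the lowest for 44 genes (39.8% of all genes), against 12 in liver (23.3%) and 7 in spleen (22.6%). The median SD of log2(value + 1) over 3 libraries was 1.77 in thymus, 0.744 in liver and 0.736 in spleen, beside 1.34, 0.761 and 0.766 over all genes tested. Thymus had the largest SD of the 3 tissues for 56 of the 85 genes, spleen for 17 and liver for 12. The median absolute log2 difference over the 85 genes was 2.16 between thymus replicates 1 and 2, 1.70 between 1 and 3 and 1.40 between 2 and 3, beside 1.45, 1.33 and 1.34 over all genes. The pairs that hold thymus replicate 1 thus exceeded all genes the most, and replicates 2 and 3 differed by little more than all genes did. In liver the 3 pairs had 0.601 to 1.03 and in spleen 0.786 to 0.979. Taking the 76 subunits as points, Pearson's r for a pair of libraries (log2(value + 1)) was 0.200 to 0.291 in thymus, 0.585 to 0.678 in liver and 0.559 to 0.732 in spleen. Those r are descriptions over genes that are not independent of each other, and over all genes tested they were 0.704 to 0.748 in thymus, 0.796 to 0.863 in liver and 0.793 to 0.840 in spleen. Thymus replicates 1, 2 and 3 had 25019964, 27700898 and 18487219 recovered reads. Those of liver had 31586976, 27695107 and 3870808, and those of spleen 37185081, 32512027 and 39604258. The part of depth in the spread was not tested.

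**Figure D3:**
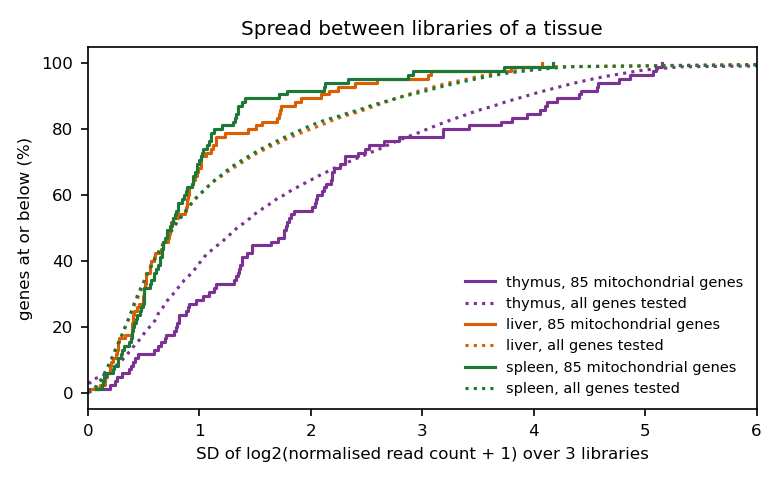
Share of genes (y axis, percent) whose SD of log2(normalised read count + 1) over the 3 libraries of a tissue is at or below the value on the x axis, for the 85 genes (solid) and all genes tested (dotted). At the middle of the plot the thymus line of the 85 genes reaches 1.77 and those of liver and spleen 0.744 and 0.736.

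**Figure D4:**
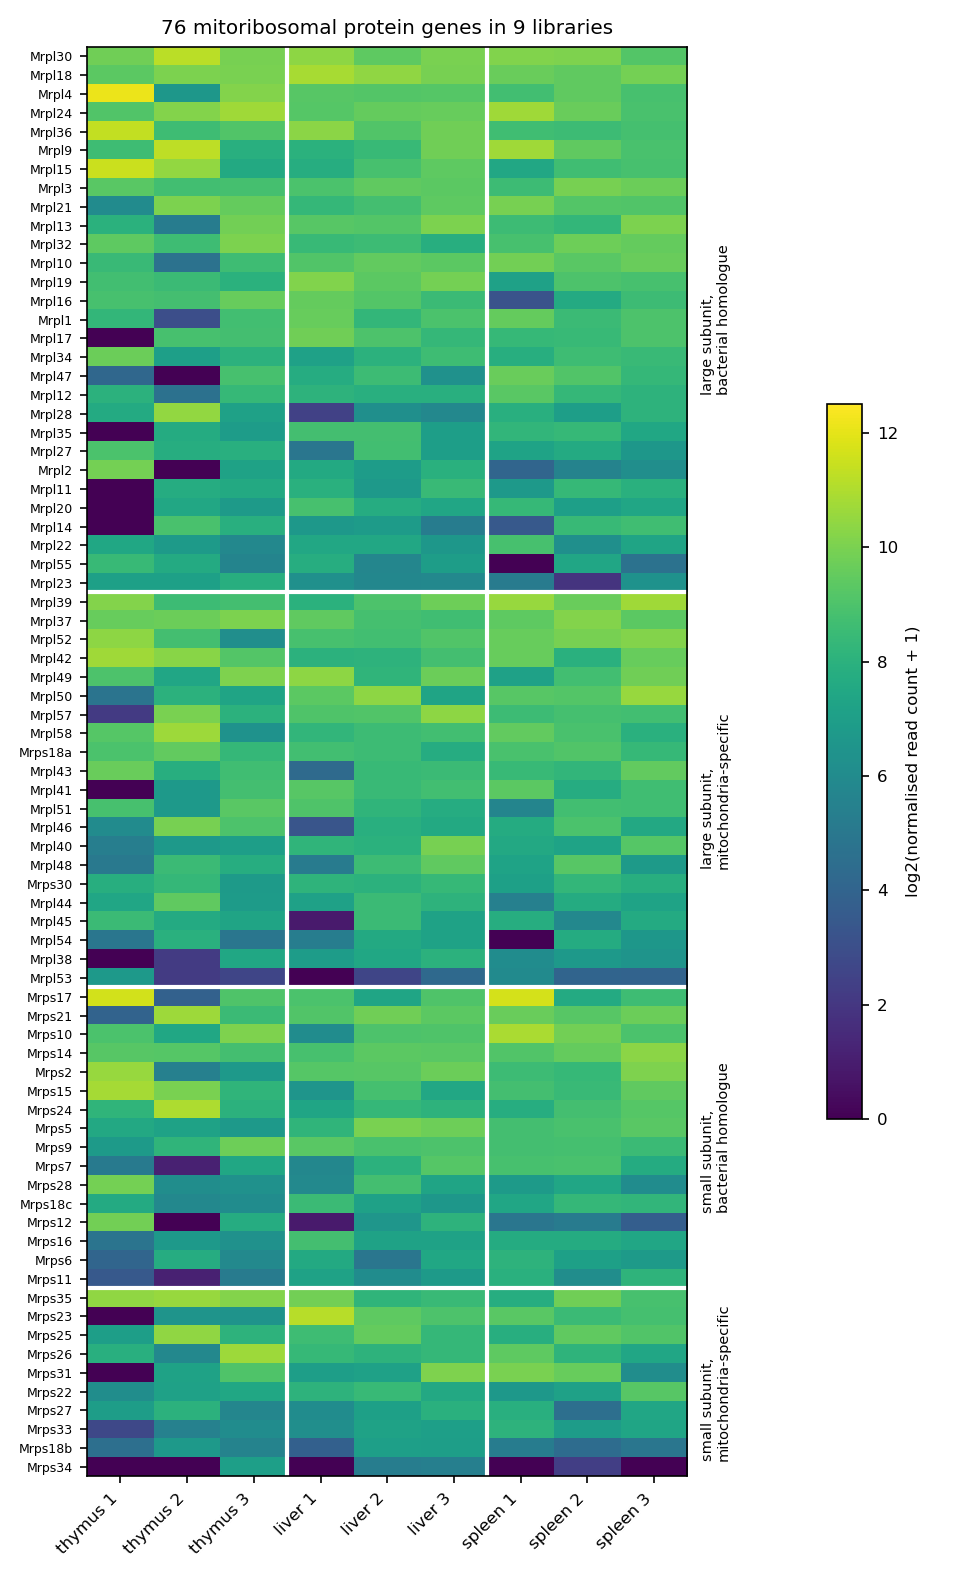
Level of each of the 76 subunits in each library as log2(normalised read count + 1), in 4 blocks by subunit and origin, each sorted by mean level. Dark cells are genes with no or few reads. They are most frequent in the thymus columns, where high and low genes also change places from 1 library to the next.

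The large subunit as a whole did not separate the tissues. Over its 50 genes the median log2 fold change was 0.29 in liver vs thymus, 0.05 in spleen vs thymus and -0.05 in liver vs spleen, with 30, 27 and 24 genes positive, and none passed the threshold. Its sign against thymus depended on the fit: with edgeR on the recovered reads the medians were -0.32 and -0.05. Mrpl28, a large-subunit protein with a bacterial relative, had 197, 1415 and 139 in thymus, 4.32, 72.9 and 55.7 in liver and 236, 129 and 266 in spleen. Every liver value was below every thymus and every spleen value. The log2 fold change was -3.59 (SE 1.42, adjusted p = 0.346) in liver vs thymus and -2.84 (SE 1.42, adjusted p = 1) in liver vs spleen, and of 25 alternatives in the first comparison DESeq2 alone called it (adjusted p = 0.0302, range 0.0302 to 0.714). Liver replicate 3, the shallowest library, rests on 9 reads of it and liver replicate 1 on 5. Mrpl38 and Mrpl41, which occur in mitochondrial ribosomes and not in bacterial ones, had the largest positive differences in liver vs thymus among large-subunit genes. Mrpl38 had 0.0211, 3.5 and 172 in thymus, 118, 174 and 259 in liver and 65.6, 103 and 87.5 in spleen, with a liver vs thymus value of 4.25 (SE 1.87, adjusted p = 0.399). Mrpl41 had 0.0212, 108 and 432 in thymus, 602, 350.2 and 423 in liver and 649, 213 and 401 in spleen, with a liver vs thymus value of 3.62 (SE 1.70, adjusted p = 0.428). In both, thymus replicate 1 had no read and thymus replicate 3 lay within the range of the periphery. A pseudogene, Gm6434, matches 372 bases of Mrpl41 at 97.8%. Mrpl47, which sits beside the exit tunnel, had 16.8, 0.0274 and 468 in thymus, 211, 375 and 79.9 in liver and 786, 557 and 322 in spleen. It was the largest positive spleen vs thymus difference of a subunit, 4.67 (SE 1.78, adjusted p = 0.319), with thymus replicate 3 again inside the spleen range. The exons of Mrpl47 overlap Actl6a and Ndufb5 on the other strand, and strand use in counting is not stated.

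Among large-subunit genes with lower values outside thymus, Mrpl45, a protein that tethers the ribosome to the inner membrane, had 371, 201 and 158 in thymus, 0.846, 362 and 146 in liver and 217, 55.7 and 197 in spleen. The liver vs thymus value of -2.31 (SE 1.74, adjusted p = 0.631) rests on liver replicate 1, with 1 read, since liver replicate 2 was close to the highest thymus value. It was 0.02 when that library was left out. Mrpl46, of the central protuberance, had 63.9, 979 and 518 in thymus, 8.67, 239 and 195 in liver and 203, 501 and 186 in spleen. Liver replicate 1 was again the lowest of the 9, with log2 fold changes of -2.06 (SE 1.41, adjusted p = 0.586) in liver vs thymus and -1.80 (SE 1.41, adjusted p = 1) in liver vs spleen. Mrpl16, a protein near the peptidyl transferase centre, had 472, 427 and 767 in thymus, 758, 563 and 370.2 in liver and 8.15, 197 and 379 in spleen. All 3 spleen values were below all thymus values, 11 reads in spleen replicate 1 being the lowest. Its log2 fold change was -2.61 (SE 1.20, adjusted p = 0.414) in spleen vs thymus and 2.62 (SE 1.20, adjusted p = 1) in liver vs spleen, the latter the only value of the 85 at an unadjusted p under 0.05 between the peripheral tissues. Mrpl55 had 341, 197 and 48.9 in thymus, 219, 53.2 and 122 in liver and 0, 166 and 25.1 in spleen. Spleen replicate 1 had no read and spleen replicate 2 lay within the thymus range, with a log2 fold change of -3.20 (SE 1.86, adjusted p = 0.52) in spleen vs thymus. Mrpl23, at the rim of the exit tunnel, had 138, 136 and 228 in thymus, 76.5, 54.9 and 55.7 in liver and 35.7, 2.69 and 82.7 in spleen. Thymus was above both other tissues without overlap, at -1.38 (SE 1.59, adjusted p = 0.767) in liver vs thymus and -2.86 (SE 1.59, adjusted p = 0.5) in spleen vs thymus. The pseudogene Mrpl23-ps1 is identical to it over 540 bases and had 6.75, 47.3 and 28.8 in thymus, 17.4, 10.3 and 7.12 in liver and 11.9, 3.37 and 14.3 in spleen, so reads of the pair can be assigned to either.

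The small subunit had higher medians than the large one against thymus, 0.79 in liver and 0.94 in spleen, with 20 and 18 of 26 genes positive, and -0.02 in liver vs spleen with 13 positive. None of the 26 passed the threshold, and the difference between the subunits was not tested. With edgeR on the recovered reads the medians were 0.18, 0.13 and -0.11. Mrps23, a small-subunit protein specific to mitochondria, had 0.0213, 86.8 and 85.3 in thymus, 2302, 669 and 521 in liver and 629, 369 and 444 in spleen. No thymus value reached any value of the other tissues. The log2 fold change was 5.56 (SE 1.50, adjusted p = 0.177) in liver vs thymus and 4.57 (SE 1.50, adjusted p = 0.248) in spleen vs thymus, the largest of any subunit against thymus in liver. DESeq2 alone called it in liver (adjusted p = 0.00503, range over 25 alternatives 0.00503 to 0.46). Mrps11, of the platform of the small subunit, had 10.1, 1.19 and 35.2 in thymus, 144, 66.9 and 109.8 in liver and 245, 68.7 and 275 in spleen. Thymus lay below both other tissues without overlap, and the log2 fold change was 3.43 (SE 1.62, adjusted p = 0.428) in liver and 4.13 (SE 1.62, adjusted p = 0.333) in spleen. Mrps11 (chr7:78783119-78792989, plus strand) and Mrpl46 (chr7:78775236-78783531, minus strand) start head to head, their exons overlap by 173 bases, and 141 bases of the Mrps11 window printed above also lie in that of Mrpl46. Mrps5, which lies at the mRNA entry, was called by DESeq2 in liver vs thymus and is named for that reason, after its values were seen. It had 184, 145 and 105 in thymus, 286, 1005 and 858 in liver and 439, 474 and 628 in spleen. Thymus was the lowest tissue without overlap, at 2.15 (SE 0.82, adjusted p = 0.319) in liver and 1.84 (SE 0.82, adjusted p = 0.399) in spleen. DESeq2 gave an adjusted p of 0.0190 in liver vs thymus, the lowest of a range of 0.019 to 0.664. A pseudogene, Gm13328, matches 1019 of its bases at 98.4%.

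Mrps15, which binds the small-subunit RNA, went the other way, with 1790.2, 1012 and 289.6 in thymus, 92.2, 453 and 177 in liver and 439.8, 351 and 691 in spleen. Thymus replicate 3 overlapped liver, and the liver vs thymus log2 fold change was -2.04 (SE 0.88, adjusted p = 0.392). Mrps34 had 0.0205, 0.0265 and 132 in thymus, 0, 37.8 and 41.1 in liver and 0, 4.05 and 0 in spleen, that is no read in 5 of 9 libraries. Its log2 fold change of -1.60 (SE 2.12, adjusted p = 0.806) in spleen vs thymus rests on thymus replicate 3 alone, and its exons overlap Nme3 on the same strand and Mapk8ip3 on the other. Mrps10, at the head of the small subunit, had 491, 173 and 1072 in thymus, 67, 511 and 528 in liver and 1928, 918 and 495 in spleen. Liver replicate 1 was the lowest library and spleen replicate 1 the highest, for a liver vs spleen value of -1.86 (SE 0.96, adjusted p = 1). The related genes Mrps18a, Mrps18b and Mrps18c encode proteins placed at different sites, the first in the large subunit and the other two in the small. Mrps18a had 502, 717 and 317 in thymus, 418, 373 and 213 in liver and 488, 549.7 and 327 in spleen. Mrps18b had 22.4, 104 and 46.4 in thymus, 13, 133 and 126 in liver and 37.2, 20.6 and 28.7 in spleen. A pseudogene, Gm13552, matches 417 bases of Mrps18b at 99.8%, and its exons overlap Gm16279 on the other strand. Mrps18c had 196, 56.7 and 66.5 in thymus, 368, 139.9 and 98 in liver and 168, 318 and 296 in spleen. Within each of the 3 the tissues overlapped, and their log2 fold changes in liver vs thymus were -0.59, 0.34 and 0.91. Per kilobase of exon their mean levels were 118, 28.3 and 176 normalised reads.

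Values of 2 tissues did not overlap for 16 of the 85 genes in liver vs thymus, 10 higher and 6 lower in liver, beside 15.3% of all genes tested (9.61% and 5.73%). In spleen vs thymus there were 14, 10 higher and 4 lower, beside 15.3% (9.29% and 6.03%). In liver vs spleen there were 11, 7 higher and 4 lower in liver, beside 12.7% (5.97% and 6.77%). Log2 fold changes were positive for 56 of 85 in liver vs thymus (59.9% of all genes), 52 in spleen vs thymus (61.2%) and 41 in liver vs spleen (48.9%). The medians of the 85 were 0.47, 0.48 and -0.05, beside 0.29, 0.33 and -0.02 over all genes tested. With TMM scaling the all-gene medians were 0.04, 0.04 and 0.00, those of the 85 genes 0.19, 0.17 and -0.03, and 46, 46 and 42 of the 85 were positive. Relative to the all-gene median the 85 genes thus stood at 0.18 and 0.16 against thymus as deposited, and at 0.15 and 0.13 with TMM. On the recovered reads they stood at 0.075 and 0.010 with edgeR and at 0.074 and 0.017 with DESeq2.

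**Figure D5:**
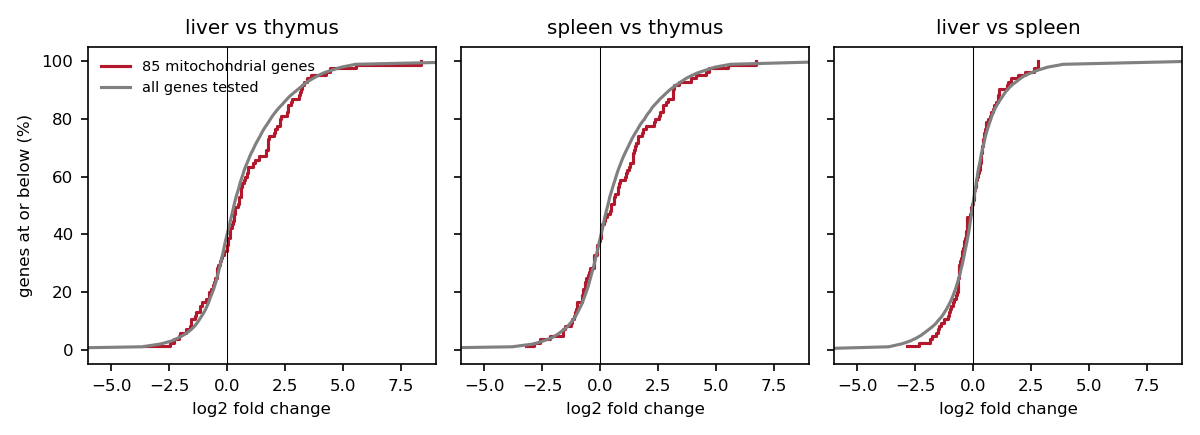
Share of genes (y axis, percent) with a log2 fold change at or below the value on the x axis, for the 85 genes (red steps) and all genes tested (grey), in the 3 comparisons. The red line lies to the right of the grey one over part of the range in both thymus panels, with medians of 0.47 and 0.48 beside 0.29 and 0.33, and near it in liver vs spleen.

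Between liver and spleen no gene of the 85 differed by the test, and the adjusted p was 1 for each when rounded. By rule the genes with the largest differences were described. Higher in liver were Mrpl2, Mrpl16, Mrpl54, Mrpl55 and Mrps34. Mrpl2, next to the peptidyl transferase centre, had 950.4, 0.0274 and 148 in thymus, 194, 121 and 242 in liver and 15.6, 47.4 and 71.9 in spleen. Liver lay above spleen without overlap, by 2.21 on the log2 scale. Mrpl54 had 29.2, 246 and 28.9 in thymus, 38.2, 191 and 146 in liver and 0, 206 and 98.3 in spleen, where the value of 1.92 rests on spleen replicate 1, which had no read. Higher in spleen were Mrpl28, Mrpl53, Mrps10, Mrpl46 and Mrpl43. Mrpl53 had 106, 3.51 and 5.07 in thymus, 0, 5.12 and 18.6 in liver and 61.3, 15.1 and 14.9 in spleen, with a log2 fold change of -2.35 and no read in liver replicate 1. A neighbouring gene model, Gm42688, overlaps its exons on the same strand. Mrpl43, whose exons overlap the mitochondrial helicase gene Twnk on the other strand, had 797, 226 and 407 in thymus, 19.1, 345 and 364 in liver and 339, 301 and 713 in spleen. Liver replicate 1 alone stood below the other libraries, and the log2 fold change was -1.62. Each of the 5 genes higher in spleen had its lowest value of the 9 libraries in liver replicate 1. Of the 5 higher in liver, Mrpl16, Mrpl54 and Mrpl55 had theirs in spleen replicate 1.

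Levels of different genes were compared per kilobase of merged exons (GENCODE M21), as the mean of the 9 normalised read counts. Mrps21 was the highest at 948, followed by Mrpl18 at 744 and Mrpl36 at 723. Mrps21 had 14.6, 1614 and 371 in thymus, 554, 879 and 655 in liver and 796, 609.5 and 815 in spleen, so its thymus libraries held both its lowest and its highest value. Mrpl36, among the smallest ribosomal proteins, had 2649, 392 and 548 in thymus, 1276, 558 and 884 in liver and 411, 382 and 456 in spleen, with thymus replicate 1 the highest. Its exons overlap Ndufs6 on the other strand. The lowest levels per kilobase were those of Mrps34 at 11.6, Mrpl23 at 18.4 and Mrpl23-ps1 at 28.2. Mrpl23 is annotated with 4883 exon bases, which lowers a level per kilobase if few transcripts use them all. By SD of log2(value + 1) over the 9 libraries, the steadiest genes were Mrps14 (0.453), Mrpl3 (0.455) and Mrpl18 (0.465). Mrps14, in the head of the small subunit, had 606, 587 and 438 in thymus, 471, 657 and 637 in liver and 546, 747 and 1293 in spleen. Mrpl3, a core protein of the large subunit, had 627, 424 and 449 in thymus, 491, 697 and 654 in liver and 382, 969 and 819 in spleen. Mrpl18, which lies by the central protuberance, had 661, 1037 and 1018 in thymus, 1834, 1395 and 969.8 in liver and 791, 702 and 954 in spleen. In each of these 3 genes the lowest and the highest library, thymus included, lay within a factor of 3. The most variable were Tefm (3.9), Polrmt (3.44) and Mrps12 (3.27). Mrps12, a protein of the decoding centre, had 905, 0.0274 and 212 in thymus, 0.846, 95.2 and 267 in liver and 29, 35.7 and 12.5 in spleen, and its thymus libraries alone ran from no read to its highest value.

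The 5 subunits with other names gave no different picture of tissue. Dap3, a GTP-binding protein of the small subunit, had 299, 1430.3 and 312 in thymus, 932, 358 and 376 in liver and 509.9, 276 and 409 in spleen. Ptcd3, which binds the small-subunit RNA, had 3412, 1593 and 1513 in thymus, 2392, 875 and 728 in liver and 1148, 1626 and 1097 in spleen. Chchd1 had 47.1, 415 and 74 in thymus, 3.46, 156 and 298 in liver and 345, 755 and 304 in spleen, the largest liver vs spleen difference of the 5 at -2.86 (SE 1.56, adjusted p = 1). Aurkaip1 had 305, 1223 and 228 in thymus, 792, 883 and 1132 in liver and 655, 790.5 and 997 in spleen, with thymus replicates 1 and 3 below every peripheral library. Gadd45gip1, of the large subunit, had 138, 2509.9 and 25.1 in thymus, 77.4, 161 and 122 in liver and 233, 252 and 123 in spleen, its thymus libraries holding both extremes. None of the 5 passed in any comparison, and all had overlapping thymus values. The ribosomal RNAs they assemble with, mt-Rnr1 and mt-Rnr2, were the largest part of the mitochondrial signal. Their summed value was 5599470 to 10945200 in thymus, 6770000 to 9095530 in liver and 5496030 to 9464700 in spleen. In liver vs thymus the log2 fold change was 0.02 for mt-Rnr1 and -0.15 for mt-Rnr2, and in spleen vs thymus -0.24 and -0.13.

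No gene of the other pathway lists passed the threshold in a pairwise comparison: 13 translation factors, 23 assembly factors, 18 RNA-processing genes, 17 mitochondrial aminoacyl-tRNA synthetases, 8 genes for replication of mitochondrial DNA and 9 regulators of mitochondrial biogenesis. Translation factors had medians of 0.05 in liver vs thymus and 0.10 in spleen vs thymus, with 7 and 8 of 13 positive. Assembly factors had medians of 0.95 and 1.16, with 15 and 16 of 23 positive. RNA-processing genes had 0.31 and 0.16, with 10 and 11 of 18 positive, and aminoacyl-tRNA synthetases had 0.49 and 0.25, with 12 and 10 of 17 positive. Replication genes had -0.14 and 0.54, with 4 and 5 of 8 positive, and regulators 0.54 and 0.26, with 5 and 6 of 9 positive. Beside the all-gene medians of 0.29 and 0.33, the lists lay on both sides.

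How reads were assigned bears on many of these genes. Of the 85, 39 share at least 150 bases at 97% identity or more with another annotated gene, in 17 cases a pseudogene, and the exons of 35 overlap those of another gene. Neither how such reads were treated nor whether strand was used is stated. Tefm, Tfam, Polrmt, Mrps23, Mrpl28 and Mrpl38 have neither such a copy nor an overlap.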

How the data were processed

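RNA of iNKT1 cells was sequenced from 9 libraries, 3 per tissue. Libraries were made with a low-input kit and sequenced for 76 cycles, per the labels' protocols. The deposited values are the authors' normalised read counts, a signal that is not whole and is scaled per library in a way not given in the sources used here. Trimmomatic 0.33, TopHat2 2.1.0, HTSeq 0.6.1, edgeR and mm10 are named, per the submitters' processing notes. Tissue came from the labels, and each column was matched to a library by tissue and replicate number; the column of thymus replicate 2 has 1 more letter in its prefix, unexplained in the labels. Symbols matched 13359 of 14004 identifiers, and no sample column was left unused. Coordinates and exon lengths are from GENCODE M21 (GRCm38, the build of mm10).

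The 85 genes and all lists were chosen with earlier results of these data known. The design named edgeR for raw counts and limma-trend for other units, so the latter was used: limma-trend (limma 3.58.1, R 4.3.3) on log2(value + 1), for the 13309 genes that reached 1 in 3 or more libraries. All 9 libraries entered 1 fit with a term per tissue. Tests were two-sided, with Benjamini-Hochberg adjustment over all genes tested and a threshold of 0.05. Low values lay on a ladder of equal steps, from which reads were recovered. Of 15739 values of 1 to 20 reads, 92.9% lay within 0.1 read of a whole number, and 70.7% in liver replicate 3, whose reads are the least exact. On these reads edgeR 4.0.16 called 22, 37 and 2 genes of all tested in liver vs thymus, spleen vs thymus and liver vs spleen, and DESeq2 1.42.0 called 453, 512 and 22. Where a tissue had no read, a fold was taken against 3 reads in each library, which covers counting error only, since no molecular identifiers are mentioned.

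Named genes are the 7 transcription genes, the 5 largest positive and negative differences per comparison (mean of at least 10 in the higher tissue), calls, the 3 highest and lowest levels per kilobase, the 3 smallest and largest SDs, the Mrps18 genes, 5 subunits with other names and the mitochondrial ribosomal RNAs. Near-identical copies were found by aligning transcripts (at least 97% identity over 150 bases). The steps were run on simulated counts with the same setting for the spread in every tissue and with exact steps. Such data cannot show how they behave with the wider spread of the thymus libraries or the less exact values of liver replicate 3. Alternatives were the scaling, pseudocount, filter, tool, weights, a replicate block, the samples in the fit and each library left out; some were added after the data had been seen.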

Additional observations from a re-analysis of the deposited data

How the results depend on the processing

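The count of genes past the threshold was 1 in liver vs thymus. It became 4 with DESeq2 and 2 without thymus replicates 1 and 2. It became 0 with array weights, edgeR, edgeR with a replicate block, the replicate block in limma, log2(value + 10), no filter, only the 6 samples compared, only libraries numbered 1 and 3, or a term for the libraries with high Xist (thymus replicates 2 and 3, liver replicate 2 and spleen replicate 2, at 16531 to 107736 against 1.14 to 125 in the others), so that thymus holds 2 of its 3 among them and each other tissue 1. Leaving out 1 library at a time gave 0 to 2. In spleen vs thymus the count of 0 became 1 with DESeq2 and 2 without thymus replicates 1 and 2 (Mrpl52 and Tfam), and leaving out 1 library gave 0 to 1. In the F-test it became 1 with DESeq2, and leaving out 1 library gave 0 to 1. In liver vs spleen it was 0 under every alternative run. The Xist term, the libraries 1 and 3, the omission of thymus replicates 1 and 2 and the edgeR block were chosen after seeing the data. That omission left a single thymus library, which gives no spread within thymus.

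The median log2 fold change of the 85 genes in liver vs thymus, 0.47, became 0.0302 with DESeq2, 0.0528 with edgeR, 0.24 with edgeR and a replicate block, 0.19 with TMM, 0.62 with equal totals, 0.64 with equal totals without mitochondrial genes, 0.64 with array weights, 0.31 with log2(value + 10), 0.63 with only libraries numbered 1 and 3 and 0.14 without thymus replicates 1 and 2. Leaving out 1 library gave 0.27 to 0.57. In spleen vs thymus, 0.48 became -0.00503 with DESeq2, 0.0389 with edgeR, 0.32 with edgeR and a replicate block, 0.17 with TMM, 0.65 with equal totals, 0.64 with equal totals without mitochondrial genes and 0.25 without thymus replicates 1 and 2. Leaving out 1 library gave 0.27 to 0.53, and in liver vs spleen -0.14 to 0.01. The cause of these shifts was not tested.

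Replicate numbers are shared between tissues. Same-numbered libraries deviated together with correlations of -0.000731 to 0.0891. The fit did not take the numbers as pairs, and correlations this low cannot decide whether they are. Libraries with different numbers had -0.0866 to 0.0484. Between liver and spleen, same-numbered libraries had 0.029 to 0.0891 and the others -0.0866 to 0.0132. Thymus replicate 2 correlated most with spleen replicate 1 (0.0362). Xist was high in replicate 2 of every tissue, and in thymus replicate 3. Whether same-numbered libraries share an animal was not tested, and with the replicate block in limma Tefm lost its call in liver vs thymus. For the named genes, 1922 of 1946 values under the alternatives kept their side of the threshold, 15 lost a call, all Tefm in liver vs thymus, and 9 gained one; no called value turned its sign. In 76 values the sign differed with neither value past the threshold. Only 1 of the 78 results of named genes was a call, that of Tefm, so no other could lose one. Mrps5, named after its values were seen, is not in these counts. Liver replicate 3, with 3870808 reads, limits what can be said of genes with few reads there.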

Other observations

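Of the 13 mRNAs encoded by the mitochondrial genome, which the mitochondrial ribosome translates, 7 were in the table. All 7 had negative log2 fold changes in liver vs spleen, with a median of -0.65, and in liver vs thymus, with a median of -0.51. In spleen vs thymus 6 of the 7 were positive, with a median of 0.13. Over all genes tested the medians were -0.02, 0.29 and 0.33, with 48.9%, 59.9% and 61.2% positive. None of the 7 passed the threshold in any comparison. The largest difference was that of mt-Nd2, a subunit of respiratory complex I, with 15765, 24215 and 6702 normalised reads in thymus, 9190.2, 4366 and 5882 in liver and 30731, 14825 and 18576 in spleen. Every liver library was below every spleen library, at a log2 fold change of -1.72 (SE 0.41, adjusted p = 0.906 with limma), and 1 of 25 alternatives passed, over which the adjusted p ran from 0.00267 to 1. For mt-Co1, a core subunit of complex IV, the difference was -0.05 (SE 0.24). Mitochondrial genes took 26.1% to 37.4% of the value of each library.

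The rule for named genes does not cover the 9 regulators of mitochondrial biogenesis. The 4 described here had an unadjusted p under 0.05 with limma in a pairwise comparison, and no other of the 9 had. The factor Nrf1 had 873, 1417 and 133 normalised reads in thymus, 1103, 1102 and 703.5 in liver and 3044, 1932 and 1983 in spleen. Spleen was above both other tissues without overlap. The spleen vs thymus difference was 2.05 on the log2 scale (SE 0.73, adjusted p = 0.284 with limma), and 1 of 25 alternatives passed, with adjusted p from 0.00271 to 0.569. Gabpa, a subunit of the factor that binds the ETS motif, had 2739.8, 1337 and 3283 in thymus, 5339, 4291 and 4343 in liver and 3074, 3584 and 4836 in spleen. Liver was above thymus without overlap, at 1.02 (SE 0.38, adjusted p = 0.314 with limma). Its partner subunit Gabpb2 was lower in liver than in both other tissues without overlap, with 8128, 10531 and 7447 in thymus, 7275, 5392 and 4858 in liver and 10919, 7863 and 8822 in spleen, at -0.58 (SE 0.27, adjusted p = 0.416 with limma) against thymus. Esrra, a nuclear receptor, had the largest differences of the 9 regulators, 4.51 (SE 1.84, adjusted p = 0.364 with limma) in liver vs thymus and 4.68 (SE 1.84, adjusted p = 0.333) in spleen vs thymus. Its values were 0.0212, 1.19 and 94 in thymus, 249, 144 and 67.6 in liver and 222, 158 and 99.5 in spleen, so thymus replicate 3 overlapped liver.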
